A study of Homo sapiens with 24 samples.

Results

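The genes described here encode the proteins that shorten the poly(A) tail of an mRNA, remove its cap and degrade its body, together with the proteins that recruit or restrain them. Members were chosen by gene symbol and role, and the list held 51 genes in 9 groups by role. Of these, 50 matched 1 of the 29794 gene identifiers of the count tables, and DCP1A was not analysed here. All 50 passed the filter on low counts in both batches. Members were compared between cells that expressed a miRNA and the empty vector cells of the same batch, and between miRNAs of the same batch.

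Animal miRNAs are loaded onto Argonaute proteins and pair through their seed with sites in the 3′UTR of target mRNAs. The adaptor TNRC6 then recruits the deadenylases CCR4-NOT and PAN2-PAN3, and the shortened tail is followed by decapping by DCP2 and its cofactors and by degradation by XRN1. The members are therefore both the machinery that carries out repression by miRNAs and mRNAs that can themselves hold miRNA target sites.

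RNA-seq of polyadenylated RNA was done in a human embryonic kidney line, Flp-In T-REx 293, stably transduced with a lentiviral vector in which a doxycycline-inducible CMV promoter drives GFP with a miRNA hairpin in its intron. The 24 libraries formed 9 groups, which all received 1 µg/mL doxycycline for 7 days and had been selected with 1 mg/mL Geneticin for 6 days. In batch 1 the empty vector (no miRNA hairpin), miR-1 and miR-122 had 2 libraries each. In batch 2 there were 3 libraries of every group, namely the empty vector, miR-133a, miR-155, and a trio with 1 common seed (miR-302a, miR-372, miR-373). Replicates were transduced and maintained separately. Libraries held 20153452 to 21595191 counted reads in batch 1 and 13047400 to 35040778 in batch 2. The biological coefficient of variation was 0.0310 in batch 1 and 0.0966 in batch 2, so smaller differences passed the test in batch 1 and counts of calls were not compared between batches. Of the HEK293 markers, VIM, KRT8, KRT18, INA, PAX2 and NEFM were detected in every library, with VIM at 908 to 1310 counts scaled to library size (CPM). Of 11 markers of other lineages, NANOG had 0 reads in every library and COL1A1 was the only one above 2 CPM in any library, at 8.17 to 25.7 CPM. The summed level of the 11 was 16.99 to 17.03 CPM with miR-1 and 16.99 to 17.40 CPM with miR-122 against 14.45 to 14.60 CPM in the empty vector libraries of batch 1. In batch 2 it was 10.2 to 12.1 CPM with miR-133a, 10.0 to 15.5 CPM with miR-155 and 18.5 to 29.02 CPM in the libraries of the miRNAs that share a seed (miR-302a, miR-372, miR-373), against 12.6 to 16.1 CPM in the empty vector libraries. The summed level of the HEK293 markers was 1485 to 1519 CPM with miR-1 and 1263 to 1296 CPM with miR-122 against 1342 to 1368 CPM in the controls, and in batch 2 1645 to 1794 CPM with miR-155 and 1385 to 1585 CPM with the other miRNAs against 1380 to 1392 CPM. The part of these differences in the results was not tested.

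The mature sequences of the 7 miRNAs are shown because the seed (bases 2 to 8, in capitals) defines the target sites, and because miR-302a, miR-372 and miR-373 share 1 seed.
miR-1: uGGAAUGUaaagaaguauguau
miR-122: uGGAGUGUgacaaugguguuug
miR-133a: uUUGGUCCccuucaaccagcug
miR-155: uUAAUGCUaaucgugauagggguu
miR-302a: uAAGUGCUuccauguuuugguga
miR-372: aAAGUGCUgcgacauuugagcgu
miR-373: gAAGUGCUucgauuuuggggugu
These are RefSeq sequences of the arms assumed to be the guides. In the hairpin sequences printed with the study, as text, this seed was found for 4 of the 7 miRNAs. It was not found in those of the same-seed trio, which held the mature sequence from base 4 (miR-302a, miR-372) or base 5 (miR-373) to its end. The shared seed, and every match to it below, is therefore that of RefSeq.

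In the comparisons with the empty vector, 5 different members fell: LSM3 and ZFP36L1 with miR-1, PAN3 and BTG2 with miR-133a, and CNOT6 with miR-302a and miR-372. The 3′UTRs of 4 of these held a match to the seed of that miRNA, and BTG2 held none. The matches are printed in the orientation of the mRNA, from the GRCh37 genome, with the match in capitals and 10 bases on each side, and those of CNOT6 fit the seed that miR-302a, miR-372 and miR-373 share. An 8mer pairs with bases 2 to 8 and has an A opposite base 1, a 7mer-m8 lacks that A, and a 7mer-A1 pairs with bases 2 to 7 and has the A. The coordinates are those of the match, and each lies in the longest annotated 3′UTR of the gene.
PAN3, miR-133a 7mer-m8, chr13:28868699-28868705, plus strand: tttaatttgtGGACCAAtgttttgtga
CNOT6, shared-seed 8mer, chr5:180003345-180003352, plus strand: ggagaggaggAGCACTTActcatgttgt
CNOT6, shared-seed 7mer-m8, chr5:180004242-180004248, plus strand: tgggattattAGCACTTtcaaacttag
ZFP36L1, miR-1 8mer, chr14:69254605-69254612, minus strand: ccatctcaagACATTCCActcacagatt
ZFP36L1, miR-1 7mer-A1, chr14:69255277-69255283, minus strand: taatggtattCATTCCAcatacaatat
LSM3, miR-1 7mer-A1, chr3:14240871-14240877, plus strand: ccgctatggtCATTCCAttttgaaatg

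In the empty vector cells all 50 members were expressed. On the scale of reads scaled to counted exon length and library size (RPKM), the highest level was that of LSM7, a subunit of the LSm ring that binds deadenylated tails, at 165 ± 17.5 RPKM (SD, n = 2) in batch 1 and 202 ± 6.54 RPKM (n = 3) in batch 2. Its rank is given with less certainty, because it rests on a counted exon length of 529 bases, the shortest of the members. PABPC1, the main cytoplasmic poly(A)-binding protein, followed at 156 ± 1.05 and 178 ± 4.34 RPKM, and the SDs of these first 2 genes did not separate them in batch 1. LSM4, PABPC4 and LSM14A took the next ranks in both batches. The lowest was CNOT4, a ubiquitin ligase that binds CCR4-NOT, at 4.06 ± 0.302 and 3.85 ± 0.177 RPKM. The level of PABPC1 is uncertain, as the annotation names 13 PABPC1 pseudogenes and only reads of high mapping quality were counted.

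CNOT1, the scaffold of CCR4-NOT, had levels of 72.03 ± 7.86 and 58.8 ± 6.09 RPKM, and was the highest of the 11 CCR4-NOT members in both batches. Of the paired deadenylase subunits, CNOT6 made up 76.7% ± 0.354 of the summed CNOT6 and CNOT6L level in batch 1 and 75.8% ± 1.06 in batch 2. CNOT7 made up 58.5% ± 0.00197 of the CNOT7 and CNOT8 sum in batch 1 and 57.2% ± 0.532 in batch 2. The decapping enzyme DCP2 had levels of 15.8 ± 0.214 and 17.6 ± 0.911 RPKM, and its helicase cofactor DDX6 of 20.7 ± 1.205 and 19.05 ± 1.61 RPKM. XRN1, the exonuclease that degrades decapped mRNA from its cap end, was at 5.57 ± 0.583 and 5.25 ± 0.469 RPKM, among the 3 lowest members in both batches. BTG1 is given with less certainty, because its counted exons overlap another gene on the same strand and span only 684 bases. The same overlap holds for EDC4, a scaffold of decapping.

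**Figure D1:**
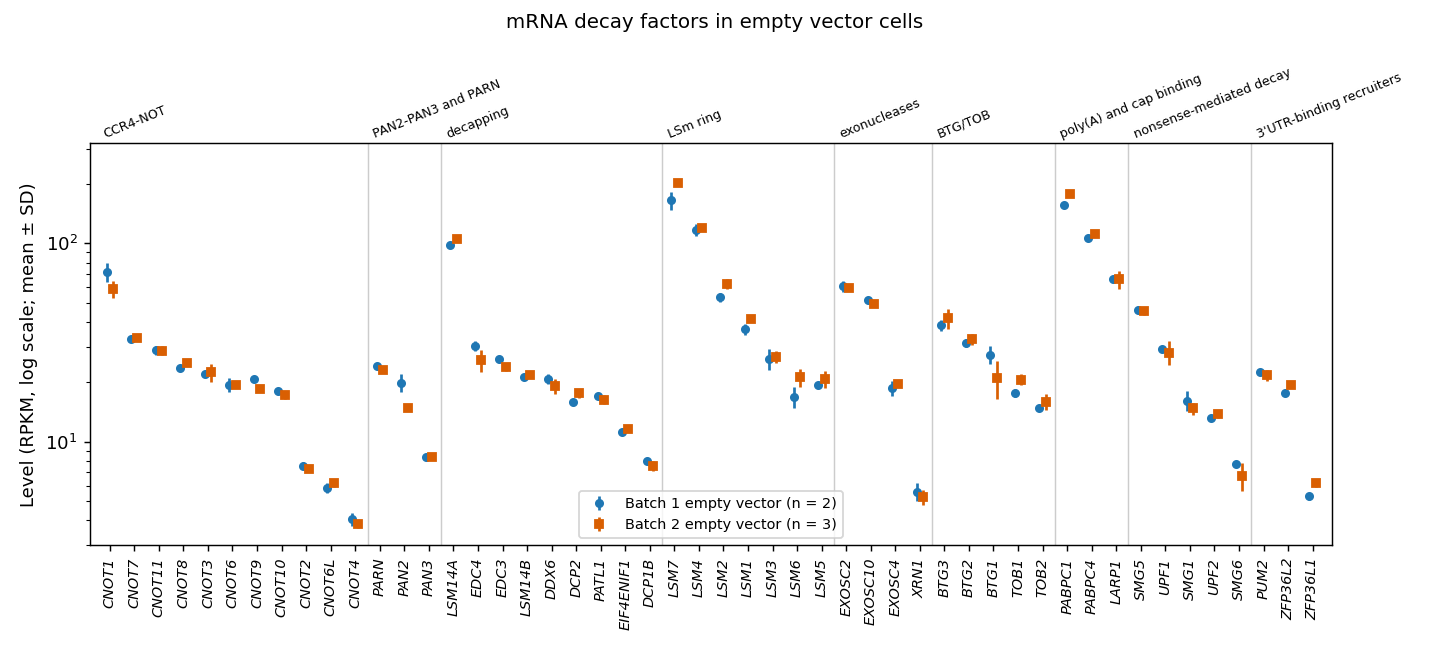
Levels of the 50 members in empty vector cells on a log axis (RPKM, mean ± SD; circles batch 1, n = 2; squares batch 2, n = 3), grouped by role. LSM7 and PABPC1 are the highest in both batches and CNOT4 the lowest, at 4.06 and 3.85 RPKM.

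The question asked of each miRNA was which decay factors changed in mRNA level when it was expressed. Genes were called at an adjusted p under 0.05 (edgeR's quasi-likelihood test, Benjamini-Hochberg over all tested genes, 14348 in batch 1 and 14054 in batch 2). With miR-1, 2 of 50 members were lower and 14 higher, or 4% and 28%, against 13.7% and 10.8% of all tested genes. With miR-122, none were lower and 2 higher (all genes 4.06% and 1.86%). With miR-133a, 2 were lower and none higher (3.97% and 1.37%). With miR-155, none were lower and 3 higher (4.81% and 2.82%). With miR-302a, 1 was lower and 1 higher (4.85% and 3.02%). With miR-372, 1 was lower and 3 higher (6.56% and 4.82%). With miR-373, none were lower and 1 higher (3.30% and 1.83%). In the mean of the 3 miRNAs that share a seed, 1 member was lower and 3 higher (9.11% and 6.28%). At an unadjusted p under 0.05 the members numbered 18 (miR-1, all genes 36.1%), 10 (miR-122, 19.7%), 8 (miR-133a, 20.4%), 12 (miR-155, 23.8%), 8 (miR-302a, 23.2%), 6 (miR-372, 26.7%), 2 (miR-373, 17.7%) and 9 (same-seed mean, 30.0%), of 50 in each case. All comparisons of a batch share the empty vector libraries. RNA of whole cultures was measured, so less RNA per cell and fewer cells that express a gene cannot be told apart.

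These counts moved with single libraries, as did the share of all tested genes called, which is given in parentheses. The miR-1 count of 16 (24.5%) fell to 9 without miR-1 replicate 1 (12.1%) and to 8 without replicate 2 (13.9%). The miR-122 count of 2 (5.92%) was 9 without empty vector replicate 2 (10.9%), 1 without miR-122 replicate 2 (2.89%) and 0 without miR-122 replicate 1 (2.18%). The miR-155 count of 3 (7.63%) was 0 without empty vector replicate 2 (3.48%) and 1 without replicate 3 (4.19%). The miR-302a count of 2 (7.88%) was 4 without miR-302a replicate 2 (12.4%), and 1 without empty vector replicate 2 (4.04%) or miR-302a replicate 1 (3.38%). The miR-372 count of 4 (11.4%) was 2 without miR-372 replicate 2 (7.57%) or any of the empty vector libraries (6.03% to 6.98%), and the miR-373 count of 1 (5.13%) was 2 without miR-373 replicate 2 (3.54%). The count of 4 in the mean of the same-seed miRNAs (15.4%) was 2 without any of the empty vector libraries (7.75% to 8.92%), miR-302a replicate 1 (12.8%) or miR-373 replicate 1 (1849 of 14203 genes). Replicate 2 of miR-155, of miR-302a and of miR-372 stood apart from the other replicates of their groups, as described with the LSm ring. With these 3 libraries left out of the fit, a choice made after seeing the data, 7 members were called with miR-133a (14%, against 16.1% of all tested genes), 3 with miR-155 (6%, 8.21%), 10 with miR-302a (20%, 24.2%), 4 with miR-372 (8%, 14.2%), 2 with miR-373 (4%, 12.0%) and 9 in the mean of the same-seed miRNAs (18%, 27.0%).

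The changes were small. The median log2 fold change of the 50 members lay between -0.01 for miR-122 and 0.06 for miR-1, where the median of all tested genes lay within 0.01 of 0 for every miRNA. The lowest value of any member was -0.46 (BTG2, miR-133a) and the highest 0.48 (BTG2, miR-372). Against the empty vector, 12 of the 34 calls held in every alternative fit and without each library in turn: BTG2 with miR-1, miR-133a, miR-302a, miR-372, miR-373 and the mean of the same-seed miRNAs, CNOT6 with miR-372 and that mean, PAN3 with miR-133a, and TOB2, CNOT11 and SMG5 with miR-1.

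**Figure D2:**
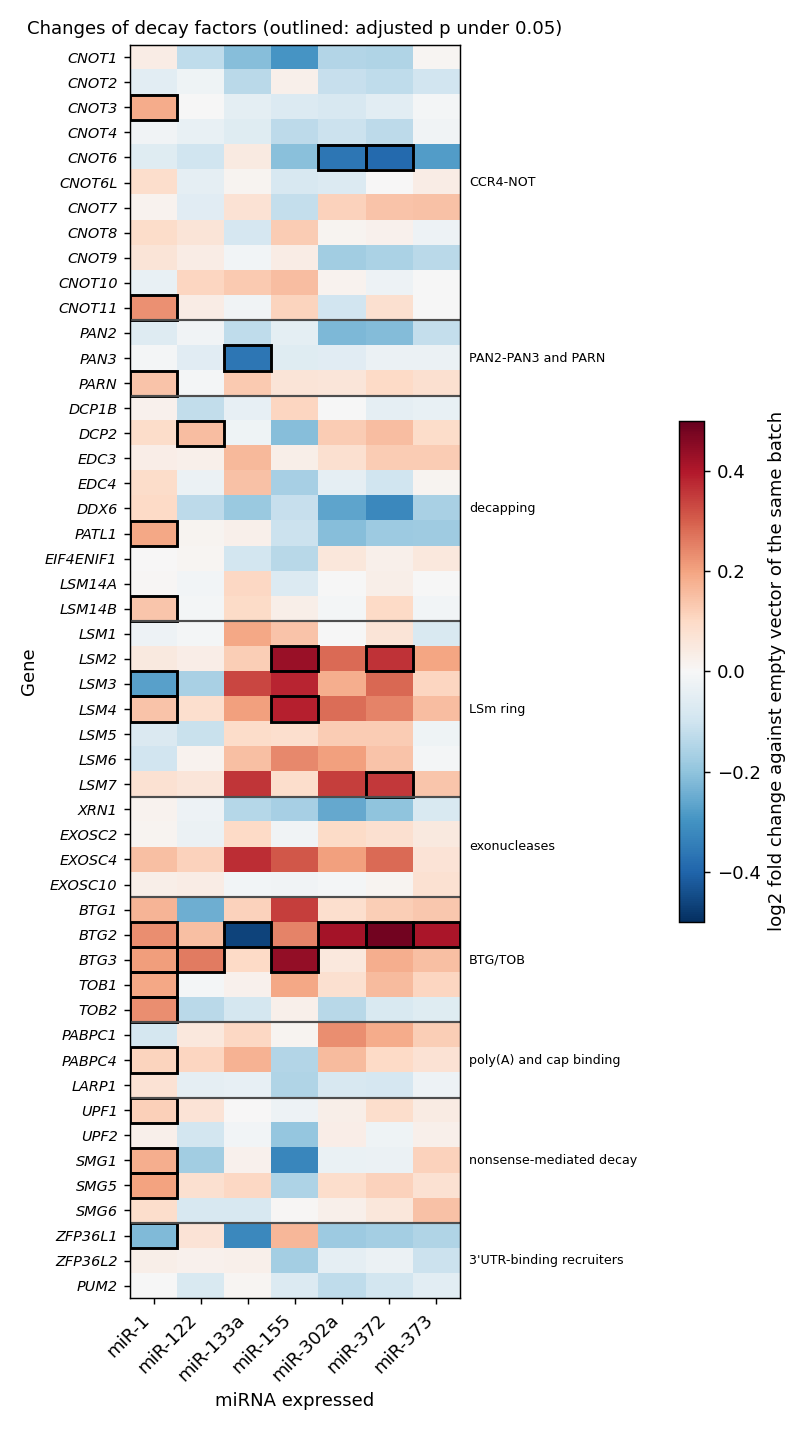
Log2 fold change of each member (rows, by role) with each miRNA (columns) against the empty vector of its batch, from blue (lower) to red (higher), with calls at an adjusted p under 0.05 outlined. BTG2 is outlined in 5 columns, lower with miR-133a at -0.46 and higher with miR-1, miR-302a, miR-372 and miR-373 at 0.23 to 0.48.

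The BTG/TOB proteins bind the CCR4-NOT deadenylases CNOT7 and CNOT8 and couple them to mRNA. BTG2, an antiproliferative member of this family, was the member with calls in the most comparisons. It lies at chr1:203274619-203278730 on the plus strand. In batch 2, the empty vector libraries gave 90.5, 81.7 and 91.7 CPM of BTG2 (ENSG00000159388.5). The miR-133a libraries gave 61.8, 65.0 and 64.6 CPM, all below every empty vector library. The log2 fold change was -0.46 (SE 0.0799, adjusted p = 0.0012 by edgeR), a level that fell by 27.4%.

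With each of the same-seed miRNAs, BTG2 rose. It was at 129, 108 and 116 CPM with miR-302a, at 127, 118 and 123 CPM with miR-372, and at 117, 109.8 and 123 CPM with miR-373. Each of these 9 libraries was above every empty vector library. As log2 fold changes these were 0.42 (SE 0.0786, adjusted p = 0.0024 by edgeR), 0.48 (SE 0.0784, adjusted p = 0.00054) and 0.41 (SE 0.0783, adjusted p = 0.0037). With miR-155, BTG2 was at 107, 95.8 and 110.0 CPM, and a log2 fold change of 0.25 (SE 0.0788) did not pass (adjusted p = 0.060 by edgeR). In batch 1, BTG2 was at 82.7 and 88.0 CPM in the empty vector libraries and at 97.2 and 103 CPM with miR-1, a log2 fold change of 0.23 (SE 0.0497, adjusted p = 0.0021 by edgeR), while miR-122 gave 96.7 and 92.9 CPM and a value of 0.15 that did not pass (adjusted p = 0.085 by edgeR). The longest annotated 3′UTR of BTG2, of 2164 bases, held no match to any of the seeds shown above.

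BTG3, a paralogue of BTG2, rose with both miRNAs of batch 1 and with miR-155. In batch 1 it was at 63.4 and 69.0 CPM in the empty vector libraries, 76.0 and 77.2 CPM with miR-1 and 81.4 and 77.2 CPM with miR-122, without overlap of either group with the controls. As log2 fold changes these were 0.21 (SE 0.0531, adjusted p = 0.0069 by edgeR) and 0.26 (SE 0.0530, adjusted p = 0.0042). The first was lost without empty vector replicate 1 (adjusted p = 0.054) and the second without miR-122 replicate 1 (adjusted p = 0.12). In batch 2, BTG3 was at 79.4, 63.7 and 69.0 CPM in the empty vector libraries and at 93.8, 102 and 91.8 CPM with miR-155. That was a log2 fold change of 0.44 (SE 0.0930, adjusted p = 0.0060 by edgeR), which stood at an adjusted p of 0.0504 without empty vector replicate 2.

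TOB1 and TOB2, the other antiproliferative proteins of the family, were called against the empty vector with miR-1 alone. TOB2 was at 67.8 and 67.8 CPM in the empty vector libraries and at 79.8 and 79.7 CPM with miR-1, so that the difference was far larger than the spread within either group. Its log2 fold change was 0.23 (SE 0.0475, adjusted p = 0.0013 by edgeR). TOB1 rose by 0.19 on the log2 scale (SE 0.0564, adjusted p = 0.017) and was lost without empty vector replicate 2 (0.11) or either miR-1 library (0.12 and 0.056). With miR-1, 4 of the 5 BTG/TOB members thus rose, where 10.8% of all tested genes did, and the fifth, BTG1, had a log2 fold change of 0.17 that did not pass.

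**Figure D3:**
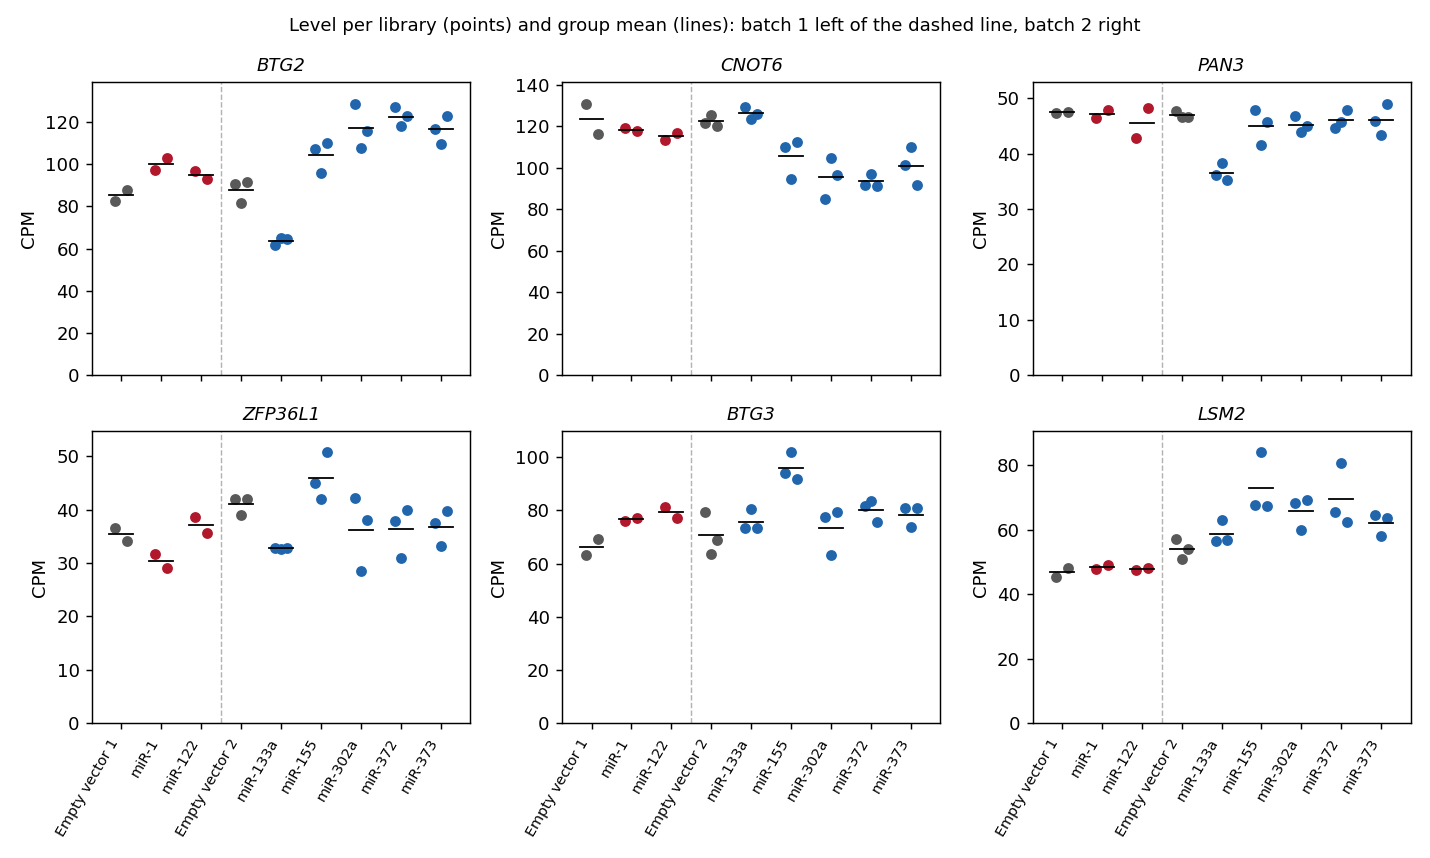
Level of 6 members in each library (CPM; points are libraries, lines group means; batch 1 left and batch 2 right of the dashed line, n = 2 and 3). The miR-133a libraries of BTG2 and PAN3 and the same-seed libraries (miR-302a, miR-372, miR-373) of BTG2 and CNOT6 do not overlap the empty vector libraries of their batch.

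CCR4-NOT carries out most of the deadenylation that miRNAs direct. CNOT6, 1 of its paired CCR4-type deadenylases (ENSG00000113300.7, chr5:179921379-180005358, plus strand), was at 121.7, 125.7 and 120.1 CPM in the empty vector libraries of batch 2. It was at 84.8, 105 and 96.6 CPM with miR-302a and at 92.0, 97.2 and 91.3 CPM with miR-372, all below the lowest control. As log2 fold changes these were -0.36 (SE 0.0857, adjusted p = 0.013 by edgeR) and -0.39 (SE 0.0856, adjusted p = 0.0060). The call with miR-302a was lost without empty vector replicate 2 (adjusted p = 0.063) or miR-302a replicate 1 (0.11).

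With miR-373, CNOT6 was at 101, 110.1 and 91.6 CPM, and a log2 fold change of -0.28 (SE 0.0853) did not pass (adjusted p = 0.065 by edgeR), and was -0.28 with an adjusted p of 0.0078 without the 3 libraries that stood apart. In the mean of the 3 miRNAs it was -0.34 (SE 0.0686, adjusted p = 0.0021), a level that fell by 21.2%. As a share of the summed CNOT6 and CNOT6L level, CNOT6 was 75.8% ± 1.06 (SD, n = 3) in the empty vector cells, 71.8% ± 2.17 with miR-302a, 70.6% ± 2.72 with miR-372 and 71.5% ± 2.104 with miR-373. CNOT6L itself had no call. The 3′UTR of CNOT6 held 2 matches to the shared seed, as shown above, and 2 to the miR-155 seed. With miR-155 CNOT6 was at 110.3, 94.6 and 113 CPM, and the log2 fold change of -0.21 (SE 0.0856) did not pass (adjusted p = 0.14 by edgeR).

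The other CCR4-NOT calls against the empty vector were with miR-1. CNOT11, a subunit that binds the N-terminal part of CNOT1, was at 74.9 and 80.0 CPM in the empty vector libraries and 91.3 and 90.1 CPM with miR-1. Its log2 fold change was 0.23 (SE 0.0496, adjusted p = 0.0024 by edgeR). CNOT3, which anchors the module of NOT-box proteins, rose by 0.19 (SE 0.0433, adjusted p = 0.0038), a call lost without miR-1 replicate 1 (0.057). CNOT1 itself was at 704 and 600.4 CPM in the empty vector libraries of batch 1 and 481, 589 and 511 CPM in those of batch 2, and passed with no miRNA. Its lowest log2 fold change was -0.29 with miR-155 (SE 0.137, adjusted p = 0.20 by edgeR), where replicate 2 was at 368 CPM against 480.4 and 441 CPM in the others.

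PAN2-PAN3 is the other cytoplasmic deadenylase, of which PAN2 is the nuclease and PAN3 the subunit that binds the poly(A) tail and TNRC6. PAN3 (ENSG00000152520.9, chr13:28712643-28869472, plus strand) was at 47.8, 46.7 and 46.7 CPM in the empty vector libraries of batch 2. With miR-133a it was at 36.1, 38.4 and 35.3 CPM, below every other library of that batch. The log2 fold change was -0.36 (SE 0.0748, adjusted p = 0.0058 by edgeR), a level that fell by 22.2%. With the other 6 miRNAs the log2 fold change of PAN3 lay between -0.06 and -0.01. Its 3′UTR held a 7mer-m8 match to the miR-133a seed, as shown above, and a 7mer-m8 match to the seed shared by miR-302a, miR-372 and miR-373. PAN2 had no call, and PARN, a poly(A)-specific ribonuclease that acts outside this complex, rose by 0.14 with miR-1 (SE 0.0464, adjusted p = 0.031 by edgeR). The PARN call was lost without empty vector replicate 1 (0.13) or either miR-1 library (0.13 and 0.14).

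Among the decapping factors, DCP2 rose with miR-122, from 141 and 143 CPM to 155.3 and 160.2 CPM, a log2 fold change of 0.15 (SE 0.0417, adjusted p = 0.032 by edgeR). This was lost without empty vector replicate 1 (0.067) or either miR-122 library (0.12 and 0.24). In batch 2, DCP2 was at 164, 156 and 148 CPM in the empty vector libraries and had no call against them. PATL1, which bridges DDX6 and the LSm ring to DCP2, rose with miR-1 by 0.19 (SE 0.0479, adjusted p = 0.0063) and was lost without miR-1 replicate 2 (0.063). LSM14B, a DDX6 partner, rose with miR-1 by 0.14 (SE 0.0496, adjusted p = 0.046) and was lost without empty vector replicate 1 (0.12) or either miR-1 library (0.23 and 0.11). DDX6 was at 103 and 94.0 CPM in the empty vector libraries of batch 1 and at 82.7, 97.9 and 88.1 CPM in those of batch 2. It had no call, and its lowest log2 fold change was -0.32 with miR-372 (SE 0.127, adjusted p = 0.11 by edgeR). Without the 3 libraries that stood apart, it was lower with miR-302a, at -0.43 (adjusted p = 0.0045 by edgeR). That fit, chosen after seeing the data, left out miR-302a replicate 2, where DDX6 was 0.45 (log2 CPM) above the mean of replicates 1 and 3.

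The heteroheptameric LSm ring (LSM1 to LSM7) binds shortened tails and activates decapping. LSM2 rose with miR-155 and miR-372. It was at 57.2, 51.1 and 54.1 CPM in the empty vector libraries of batch 2, at 67.7, 84.0 and 67.3 CPM with miR-155 and at 65.7, 80.7 and 62.6 CPM with miR-372, without overlap. As log2 fold changes these were 0.43 (SE 0.104, adjusted p = 0.014 by edgeR) and 0.36 (SE 0.103, adjusted p = 0.030). The first was lost without empty vector replicates 2 (0.082) or 3 (0.053) or miR-155 replicate 2 (0.10), and the second without any of the empty vector libraries (0.052, 0.12 and 0.081) or miR-372 replicate 2 (0.15).

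LSM4 rose with miR-155, at 356, 471 and 333 CPM against 294, 294 and 299.5 CPM, a log2 fold change of 0.39 (SE 0.112, adjusted p = 0.040 by edgeR), which was 0.22 with an adjusted p of 0.27 without miR-155 replicate 2 and was lost without any of the empty vector libraries (0.10, 0.13 and 0.10). LSM7 with miR-372 was at 137, 161 and 109 CPM against 105, 103 and 109.5 CPM, and the groups overlapped. Its log2 fold change was 0.35 (SE 0.111, adjusted p = 0.045), and 0.22 with an adjusted p of 0.23 without miR-372 replicate 2. It was also lost without any of the empty vector libraries (0.12, 0.13 and 0.085) or miR-372 replicate 1 (0.10). In the mean of the same-seed miRNAs, LSM2 and LSM7 both rose by 0.28 (SE 0.0860 and 0.0924, adjusted p = 0.033 and 0.047 by edgeR), and each was lost in 7 of the 12 fits that left out 1 library. LSM2 was lost without any of the empty vector libraries (0.062, 0.17 and 0.11), miR-302a replicate 1 (0.054) or 3 (0.055), or miR-373 replicate 1 (0.054) or 3 (0.051). LSM7 was lost without any of the empty vector libraries (0.14, 0.17 and 0.10), miR-302a replicate 1 (0.078), miR-372 replicate 1 (0.066), or miR-373 replicate 1 (0.075) or 2 (0.063).

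In batch 1, LSM3 (ENSG00000170860.3, chr3:14220317-14242622, plus strand) fell with miR-1. It was at 91.4 and 108 CPM in the empty vector libraries and 83.7 and 81.8 CPM with miR-1, a log2 fold change of -0.27 (SE 0.0602, adjusted p = 0.0027 by edgeR). Without empty vector replicate 2, the higher control, it was -0.14 (adjusted p = 0.058). LSM4 rose with miR-1 by 0.14 (SE 0.0456, adjusted p = 0.028), which was lost without empty vector replicate 1 (0.19) or either miR-1 library (0.12 and 0.13). Reads of LSM3 could also come from any of the 4 pseudogenes that the annotation names for it.

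The values of the LSm ring moved with single libraries. In replicate 2 of miR-155 and in replicate 2 of miR-372, all 7 LSm genes were above the mean of the other replicates of their group, by a median of 0.39 (log2 CPM) in both. Longer members tended to be lower in the same libraries, though not all were. SMG1, whose counted exons span 18005 bases, was 0.57 and 0.70 below the other replicates. CNOT2, with 10807 bases, was 0.31 and 0.13 above them. Across the 50 members, Spearman's rho between this difference and the counted exon length was -0.60 and -0.51, a description over genes of 1 library that share its depth and RNA. In replicate 2 of miR-302a the relation had the other sign (rho 0.52), and in the empty vector libraries of batch 1 it was 0.68 for replicate 1 against replicate 2. Over the members, the SD of the difference from the other replicates of the group was 0.272, 0.209 and 0.282 in these libraries of miR-155, miR-302a and miR-372, 0.250 in miR-372 replicate 3, and at most 0.177 in the remaining 20 libraries. Their part in the LSm calls was not tested beyond the fit without them, in which LSM2 stayed called with miR-155 and miR-372 (0.32 and 0.25) and LSM4 with miR-155 and LSM7 with miR-372 did not (adjusted p = 0.091 and 0.11 by edgeR).

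**Figure D4:**
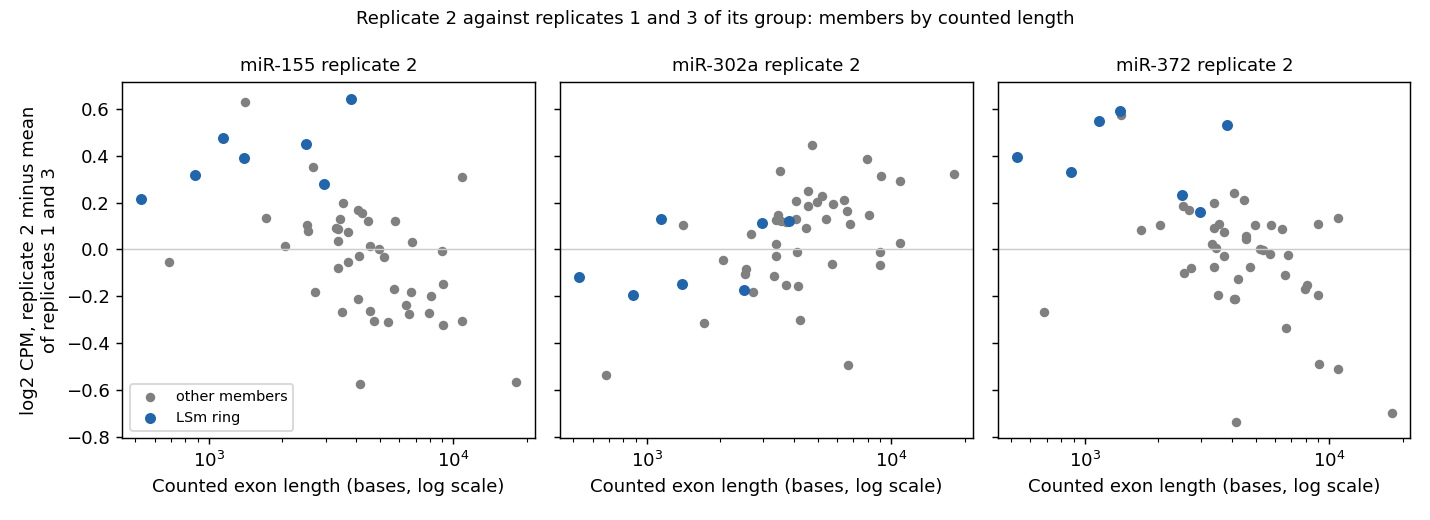
Difference of replicate 2 from the mean of replicates 1 and 3 (log2 CPM) against the counted exon length (bases, log axis) for the 50 members in 3 groups of batch 2, with the LSm ring in blue. The LSm genes lie above 0 with miR-155 and miR-372 (Spearman's rho over members -0.60 and -0.51), and the relation has the opposite sign with miR-302a (0.52).

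XRN1 and the exosome subunits had no call with any miRNA in the fit of all libraries. XRN1 was at 65.4 and 56.1 CPM in the empty vector libraries of batch 1 and at 59.6, 59.6 and 50.7 CPM in those of batch 2, and its lowest log2 fold change was -0.26 with miR-302a (SE 0.131, adjusted p = 0.25 by edgeR). Without the 3 libraries that stood apart, XRN1 was lower with miR-302a, at -0.37 (adjusted p = 0.0082 by edgeR). In the miR-302a replicate 2 left out there, XRN1 was 0.29 (log2 CPM) above the mean of replicates 1 and 3. EXOSC2, EXOSC4 and EXOSC10 are subunits of the exosome, a complex that degrades RNA from the tail end. EXOSC4 had a log2 fold change of 0.37 with miR-133a (SE 0.173), which did not pass in the fit of all libraries (adjusted p = 0.24 by edgeR) and did without the same 3 libraries (0.37, adjusted p = 0.021).

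Of the proteins that bind the poly(A) tail or the cap, PABPC4, a paralogue of PABPC1, rose with miR-1 by 0.11 (SE 0.0393, adjusted p = 0.043 by edgeR) and was lost without empty vector replicate 2 (0.16) or either miR-1 library (0.28 and 0.11). PABPC1 and LARP1 had no call against the empty vector. Nonsense-mediated decay removes mRNAs with premature stop codons and uses the deadenylation and decapping enzymes. With miR-1, 3 of its 5 members rose (10.8% of all tested genes): SMG5, which recruits CCR4-NOT, by 0.20 (SE 0.0428, adjusted p = 0.0020), the kinase SMG1 by 0.18 (SE 0.0592, adjusted p = 0.032) and the helicase UPF1 by 0.12 (SE 0.0408, adjusted p = 0.039). The SMG1 libraries overlapped, at 314 and 266 CPM against 312 and 345 CPM, and the call was lost without empty vector replicate 2 (0.28) or miR-1 replicate 2 (0.30). The UPF1 call was lost without empty vector replicate 1 (0.077) or either miR-1 library (0.13 and 0.20). For SMG1, the annotation names 9 pseudogenes. No such member had a call with the other 6 miRNAs.

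ZFP36L1 and ZFP36L2 bind AU-rich elements and PUM2 binds Pumilio elements in 3′UTRs, and all recruit CCR4-NOT. ZFP36L1 (ENSG00000185650.8, chr14:69254377-69262970, minus strand) fell with miR-1, from 36.5 and 34.2 CPM to 31.6 and 29.04 CPM, a log2 fold change of -0.22 (SE 0.0681, adjusted p = 0.024 by edgeR). The call was lost without empty vector replicate 1 (0.11) or miR-1 replicate 2 (0.25). In batch 2, ZFP36L1 was at 42.0, 38.9 and 42.0 CPM in the empty vector libraries and at 32.8, 32.5 and 32.9 CPM with miR-133a. These groups did not overlap, but the log2 fold change of -0.32 (SE 0.124) did not pass in the fit of all libraries (adjusted p = 0.14 by edgeR) and passed without the 3 libraries that stood apart (-0.32, adjusted p = 0.0086). The spread of this gene was wider in other groups of the batch, as with miR-302a at 42.1, 28.4 and 38.1 CPM.

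In direct comparisons between miRNAs the fold changes come from the miRNA libraries alone, while the spread was estimated over all groups of the batch. In miR-1 against miR-122, 17 of 50 members were called (34%), against 31.2% of all tested genes, with 3 lower and 14 higher with miR-1. The count was 7 without either miR-1 library (all genes 2781 of 14628, and 19.4%), 6 without miR-122 replicate 1 (17.5%) and 11 without miR-122 replicate 2 (20.5%). The largest difference was that of BTG1, at 0.41 (SE 0.117, adjusted p = 0.011 by edgeR), which was lost without miR-1 replicate 2 (0.13) or miR-122 replicate 2 (0.26). TOB2 was higher with miR-1 by 0.37 (SE 0.0481, adjusted p = 9.3e-06), as 79.8 and 79.7 CPM against 62.0 and 61.5 CPM, and its 3′UTR held 3 matches to the miR-122 seed. SMG1 was higher by 0.36 (SE 0.0596, adjusted p = 0.00015) and DDX6 by 0.23 (SE 0.0501, adjusted p = 0.0017). ZFP36L1 was lower with miR-1 by 0.29 on the log2 scale, a value of -0.29 (SE 0.0678, adjusted p = 0.0029) that was lost without miR-1 replicate 2 (0.067) or miR-122 replicate 1 (0.069). CNOT10 and PABPC1 were the other members lower with miR-1, at -0.15 and -0.14. The CNOT10 call was lost without any of the 4 libraries and the PABPC1 call without either miR-1 library or miR-122 replicate 1. These genes were named after their values in this comparison were seen.

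In miR-133a against miR-155, 9 of 50 members were called (18%), against 16.7% of all tested genes, with 6 lower and 3 higher with miR-133a. Between libraries of these groups with the same replicate number, deviations from the group means correlated (0.23, 0.41 and 0.25). Whether such libraries were paired was not tested. With the number as a block, 12 were called (24%, against 21.7% of all tested genes), with CNOT7, UPF2 and ZFP36L2 added to the 9. BTG2 was lower with miR-133a, with a log2 difference of -0.71 (SE 0.0798, adjusted p = 4.0e-06 by edgeR). ZFP36L1 differed by -0.49 (SE 0.123, adjusted p = 0.0095), BTG3 by -0.34 (SE 0.0929, adjusted p = 0.016), PAN3 by -0.30 (SE 0.0749, adjusted p = 0.0086) and PABPC4 by 0.32 (SE 0.0673, adjusted p = 0.0025). The BTG3 difference was lost without miR-133a replicates 1 (0.067) or 3 (0.065) or miR-155 replicate 2 (0.059). Without 1 library, as few as 4 members were called, which was the count without miR-133a replicate 1 (all genes 11.1%), miR-133a replicate 3 (11.1%) or miR-155 replicate 2 (14.2%).

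Against the mean of the same-seed miRNAs, 3 of 50 members differed with miR-133a (6%, against 20.5% of all tested genes). They were BTG2, with a log2 difference of -0.90 (SE 0.0681, adjusted p = 1.3e-08 by edgeR), CNOT6 with 0.39 (SE 0.0685, adjusted p = 0.00041) and PAN3 with -0.32 (SE 0.0620, adjusted p = 0.00082). Every miR-133a library lay outside the range of the 9 same-seed libraries for each of these genes. Without miR-372 replicate 2 the count was 5 (10%, against 23.7% of all tested genes), and without the 3 libraries that stood apart it was 12 (24%, 33.7%). With the replicate number as a block it was 3 (6%, 25.2%).

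With miR-155, 10 of 50 members differed from that mean (20%, against 27.1% of all tested genes), with 7 lower and 3 higher with miR-155. With the replicate number as a block, 12 were called (24%, against 32.7% of all tested genes). DCP2 was lower with miR-155, at 136, 134 and 135 CPM against 159 to 188 CPM in the same-seed libraries, with a log2 difference of -0.34 (SE 0.0654, adjusted p = 0.00076 by edgeR). The 3′UTR of DCP2 held 2 matches to the miR-155 seed and 1 to the shared seed. CNOT7 differed by -0.26 (SE 0.0706, adjusted p = 0.011), PABPC4 by -0.26 (SE 0.0557, adjusted p = 0.0019), BTG3 by 0.31 (SE 0.0743, adjusted p = 0.0040) and ZFP36L1 by 0.33 (SE 0.0980, adjusted p = 0.016). Without miR-155 replicate 3, CNOT7 (0.086) and ZFP36L1 (0.11) were lost, and CNOT7 also without miR-155 replicate 1 (0.059). The count was 6 without miR-155 replicate 1 (all genes 20.2%) or miR-155 replicate 2 (20.1%). It was also 6 with only the groups compared in the fit (21.2%), where BTG2, UPF2, CNOT9 and EIF4ENIF1 were lost.

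Among the miRNAs that share a seed, no member was called in miR-302a against miR-372, miR-302a against miR-373 or miR-372 against miR-373, where 0% of all tested genes were called. By edgeR's quasi-likelihood test, no member had an unadjusted p under 0.05 in any of these 3 comparisons. The share of all tested genes with such an unadjusted p was itself well under 0.05 in each comparison. Its absence among members therefore does not set them apart from other genes. The DESeq2 Wald test also called 0 members. The 95% intervals bound what could be missed. For BTG2, the log2 difference between miR-302a and miR-372 lay between -0.22 and 0.09, that between miR-302a and miR-373 between -0.14 and 0.16, and that between miR-372 and miR-373 between -0.08 and 0.23. For CNOT6, the intervals were -0.14 to 0.20, -0.25 to 0.09 and -0.28 to 0.06. Over all members the widest bounds were -0.47 and 0.55.

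Seed matches in the longest annotated 3′UTR were then counted for every member. A match to the miR-1 seed was held by 10 of 50 members (20%, against 24.1% of all tested genes with a 3′UTR), to miR-122 by 8 (16%, 25.7%), to miR-133a by 9 (18%, 17.2%), to miR-155 by 12 (24%, 19.2%) and to the shared seed by 17 (34%, 30.1%). Of the members with a match, 2 of 10 were lower with miR-1, 0 of 8 with miR-122, 1 of 9 with miR-133a, 0 of 12 with miR-155, and 1, 1 and 0 of 17 with miR-302a, miR-372 and miR-373. Over all tested genes with a match, the percentages lower were 26.4 (miR-1), 10.2 (miR-122), 14.2 (miR-133a), 17.7 (miR-155), 9.93 (miR-302a), 12.7 (miR-372) and 6.98 (miR-373) after the miRNA was expressed. Of the 41 members without a match to the miR-133a seed, 1 was lower with miR-133a, BTG2 (2.44%, against 2.05% of all tested genes without a match). No other member without a match was lower. With miR-1 this was 0 of 40 members, against 10.6% of all tested genes without a match. For the remaining miRNAs that share of all tested genes was small. It was 4.41% (miR-372), 3.03% (miR-302a), 2.3% (miR-122), 2.06% (miR-155) and 1.93% (miR-373), so few calls among 33 to 42 members would be expected. Whether a fall required a match was not tested.

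Medians followed the same order as in all genes. The median log2 fold change of members with a match was below that of members without in all 7 comparisons. For miR-155 the medians were -0.14 with and 0.03 without a match, as over all tested genes (-0.14 and 0.03). For miR-133a they were -0.04 and 0.04 (all genes -0.11 and 0.02), for miR-1 0.02 and 0.07 (-0.07 and 0.02), and for miR-122 -0.03 and -0.01 (-0.04 and 0.01). For miR-302a they were -0.06 and 0.03 (-0.07 and 0.03), for miR-372 -0.03 and 0.06 (-0.08 and 0.04) and for miR-373 -0.03 and 0.04 (-0.04 and 0.02). Members with several matches were also found without a call. Over all tested genes with a miR-1 8mer, 36.2% were lower with miR-1, as was 1 of the 2 such members. Over all tested genes with a miR-133a match of any type, 14.2% were lower with miR-133a. DCP2 held 2 miR-1 8mers and a 7mer-A1 in a 3′UTR of 8711 bases and had a log2 fold change of 0.09 with miR-1 (SE 0.0418, adjusted p = 0.11 by edgeR), and CNOT9, a subunit that contacts TNRC6, held 2 miR-133a 7mer-m8 matches and had a value of -0.01 with miR-133a (SE 0.0761).

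**Figure D5:**
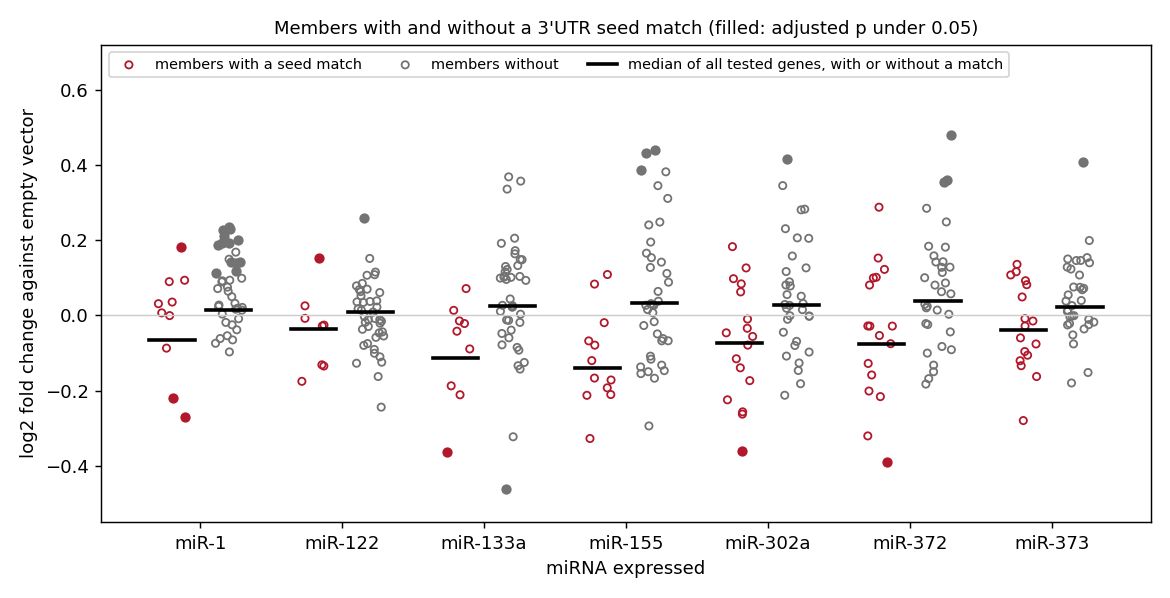
Log2 fold change of each member with (red) and without (grey) a 3′UTR match to the seed of the miRNA expressed, with calls filled, and black bars at the medians of all tested genes with and without a match. Red points called lower are LSM3 and ZFP36L1 with miR-1, PAN3 with miR-133a and CNOT6 with miR-302a and miR-372, and the lowest grey point is BTG2 with miR-133a at -0.46.

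A further list of 69 genes of mRNA decay, of which 67 were tested, gives the wider pathway. The percentages in parentheses are those lower and higher, first of the 67 and then of all tested genes. With miR-1, 5 were lower and 8 higher (7.46% and 11.9%, all genes 13.7% and 10.8%), led by CPEB1, which binds cytoplasmic polyadenylation elements, at -1.10 (adjusted p = 0.00031 by edgeR), and by the exosome subunit EXOSC6 at 0.46 (adjusted p = 1.3e-06). With miR-122 (1.49% and 1.49%, all genes 4.06% and 1.86%), 1 was lower, GIGYF2, a repressor of translation, at -0.40 (adjusted p = 0.00063), and 1 higher, EXOSC6 at 0.18 (adjusted p = 0.042). With miR-133a (1.49% and 1.49%, all genes 3.97% and 1.37%), 1 was lower, CASC3, a core subunit of the exon junction complex, at -0.35 (adjusted p = 0.018), and 1 higher, EXOSC5 at 0.39 (adjusted p = 0.035). With miR-155, 1 was lower and 2 higher (1.49% and 2.99%, all genes 4.81% and 2.82%), led by RC3H2, a roquin that binds stem-loops in 3′UTRs, at -0.63 (adjusted p = 6.0e-05) and by PNRC1, a decapping cofactor, at 0.39 (adjusted p = 0.020). With miR-302a, none were lower and 3 higher (0% and 4.48%, all genes 4.85% and 3.02%), led by NANOS1, a partner of Pumilio proteins, at 0.53 (adjusted p = 0.020) and EXOSC5 at 0.42 (adjusted p = 0.019). With miR-372, none were lower and 4 higher (0% and 5.97%, all genes 6.56% and 4.82%), led by EXOSC5 at 0.47 (adjusted p = 0.0072) and NANOS1 at 0.44 (adjusted p = 0.042). With miR-373 there was no call (all genes 3.30% and 1.83%). In the mean of the same-seed miRNAs, 1 was lower and 5 higher (1.49% and 7.46%, all genes 9.11% and 6.28%).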

How the data were processed

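RNA-seq of polyadenylated RNA was analysed in 24 libraries of 9 groups. Per the labels and the study's methods, the authors trimmed reads with fastx_clipper, aligned them to hg19 with TopHat2 2.1.1 and counted them over exons with featureCounts in a stranded mode, keeping mapping qualities of at least 50, and analysed them with edgeR 3.24.3. The deposited tables hold these raw counts per gene and the counted exon length in bases, and 0 other columns of per-sample values were left unused. Columns with the authors' own comparisons were not used.

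Counts were tested with edgeR 4.0.16 in R 4.3.3 (filterByExpr, minimum count 10, TMM, quasi-likelihood test, prior count 0.125), with 1 fit for all groups of a batch and Benjamini-Hochberg adjustment over all tested genes, at a threshold of 0.05. The SE is the log2 fold change divided by the square root of F, and intervals are 1.96 SE to each side. CPM are scaled by TMM, and RPKM were computed from the counts and used for levels between genes. The procedure was tested on simulated data. Replicates were transduced and maintained separately, per the study's methods, and their counts differed by more than sampling noise (chi-square per degree of freedom 1.81 to 35.3). Intervals and SEs rest on the spread between these libraries.

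Replicate numbers were checked for pairing by the correlation of deviations from group means. All 3 values were over 0.1 for 5 pairs of groups and for none with the empty vector. Of the 5, miR-133a with miR-155 (0.23, 0.41 and 0.25) and miR-302a with miR-372 (0.24, 0.33 and 0.16) were compared directly. The others were compared only through the same-seed mean. They were miR-155 with miR-372 (0.31, 0.68 and 0.53), miR-133a with miR-372 (0.20, 0.36 and 0.19) and miR-155 with miR-302a (0.13, 0.19 and 0.12). The numbers come from the labels, and these values do not show that libraries with the same number were paired.

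Mature miRNA sequences and genome letters are from RefSeq and GRCh37, on which hg19 is based, with GENCODE v44lift37 annotation. Mature sequences were not read from the vectors, and the guide arms were assumed. Sites were searched on the mRNA strand of the longest 3′UTR of protein-coding transcripts.

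The members and lists were chosen with earlier results of these data known. Members named with values were those called against the empty vector with the largest change, at most 6 for miR-1 and 4 for each other comparison, with CNOT1, DCP2, DDX6 and XRN1 and, of the other decay genes, at most 2 called per comparison. Other members are named to complete a group, and those of the direct comparisons were chosen after their values were seen. Of the lists, DCP1A, RBM8A, PABPN1 and NEFL were not analysed here. Alternatives were DESeq2 1.42.0, DESeq2 size factors, other filters, the compared groups alone, a replicate block, leaving out each library, and leaving out 3 libraries, which was chosen after seeing the data.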

Additional observations from a re-analysis of the deposited data

How the results depend on the processing

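Of the alternatives for single calls, 746 kept direction and side of the threshold, 200 kept direction without passing and 0 reversed, and of the counts 165 stayed within 1.5 times and 53 did not. Percentages beside the counts of members called are the shares of all tested genes called in the same fit. With the DESeq2 Wald test, the members called numbered 8 (miR-1, 12.4%), 1 (miR-122, 2.86%), 2 (miR-373, 6.37%) and 9 (miR-1 against miR-122, 17.7%). With only the groups compared in the fit, the counts with miR-122 (1, 5.21%), miR-133a (6, 17.3%) and miR-302a (4, 7.55%) moved. So did those with miR-372 (2, 5.95%), miR-373 (2, 7.77%) and miR-155 against the same-seed mean (6, 21.2%). With no filter on low counts, miR-155 had 5 (6.30%). Without the 3 libraries that stood apart, chosen after seeing the data, the counts were 7 for miR-133a, 10 for miR-302a, 2 for miR-373, 9 for the same-seed mean and 12 for miR-133a against that mean. The shares of all tested genes in that fit are given in the results above. With only 8mer and 7mer-m8 matches, a match was held by 4 members (miR-1), 4 members (miR-122) and 5 members (miR-133a). Of all tested genes with a 3′UTR, such a match was held by 1906 of 13191, 1274 of 13191 and 1189 of 13041. With the replicate number as a block, the counts of miR-1 (10, 20.5%), miR-122 (1, 4.57%), miR-133a (4, 9.31%) and miR-373 (2, 7.98%) moved, where samples share only a number. The other counts with the block stayed within 1.5 times. Leaving out 1 library, the counts against the empty vector ran from 8 to 16 (miR-1) and 0 to 9 (miR-122) in batch 1, and 2 to 2 (miR-133a), 0 to 4 (miR-155), 1 to 4 (miR-302a), 2 to 4 (miR-372), 1 to 2 (miR-373) and 2 to 5 (same-seed mean), and between miRNAs 6 to 11 for miR-1 against miR-122, 4 to 10 for miR-133a against miR-155, 3 to 5 for miR-133a against the same-seed mean, 6 to 11 for miR-155 against it, and 0 to 0 within the same-seed miRNAs. In batch 1 the lone library of such a fit was assumed to vary like the other groups. The cause of these moves was not tested. With 2 or 3 libraries a group, whose counts differed by more than sampling noise, the spread between libraries limits the precision.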
